A study of Rattus norvegicus with 4 samples.

Results

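Actb and Gapdh are the 2 genes described here, out of 26313 Ensembl rat gene identifiers listed in each sample. They were taken by identifier, ENSRNOG00000034254 for Actb and ENSRNOG00000018630 for Gapdh. The deposited lists hold identifiers without symbols, and the RefSeq table of the rat assembly GRCr8 used here carries an Ensembl identifier for 0 of its 47357 genes. The symbols of these 2 identifiers therefore rest on the names given with them. In these lists the markers of smooth muscle, endothelium, fat, fibroblasts and leukocytes could not be checked by name. Nor could the other actins, the other glycolytic enzymes and other common reference genes. The study's paper gives values for some of these genes by name, and for Actb and Gapdh themselves, which were not used here. Its RNA sequencing put Actb higher in mesenteric arteries than in aorta, not called as differentially expressed, and Gapdh lower. By its qPCR in further rats Gapdh was also lower in mesenteric arteries, with a smaller gap than the scaled one described below.

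Arteries of adult male Sprague-Dawley rats were studied by deep RNA sequencing in 4 samples, 2 of thoracic aorta (AO1 and AO2) and 2 of the mesenteric arterial arcade (MA1 and MA2). The aorta is a conduit artery, and the arcade, cleaned of fat and without the superior mesenteric artery, holds small resistance arteries. By the study's methods 1 rat gave both AO1 and MA1, while AO2 and MA2 were from 1 further rat each. Levels are in RPKM, a read count set per length of gene and per library size, and in scaled RPKM, the same values divided by a median-of-ratios factor for each sample.

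Actb encodes beta-actin, a cytoplasmic actin of the cytoskeleton that nearly all cells make, and smooth muscle cells make it beside their own muscle actins. Gapdh encodes glyceraldehyde-3-phosphate dehydrogenase, an enzyme of glycolysis that oxidizes glyceraldehyde-3-phosphate and yields NADH. Both are widely used as reference genes in qPCR and blots, where the signal of a gene of interest is divided by theirs. That division gives a true difference between tissues only if the reference gene itself is level between them. The comparison of MA with AO asks how level each of these mRNAs was in the 2 arteries.

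Whole reads could be worked out from the RPKM, since the values of a gene rise in equal steps of 1 read. They summed to between 72504854 and 82434208 reads on genes per sample. Of these, Actb took 63991 and 71220 reads in AO1 and AO2, and 95175 and 168600 reads in MA1 and MA2. Gapdh had 13741, 16576, 5906 and 11337 reads in the same order. Relative to the count, the exact Poisson 95% interval was widest for Gapdh in MA1, from 5756 to 6059 reads. These intervals cover counting error only. The differences between AO and MA and between MA1 and MA2 described below were larger than this for both genes, whereas Actb in AO1 and AO2 differed by about as much as counting error allows after scaling. The gene lengths behind the RPKM came out as 2974 bases for Actb and 3876 bases for Gapdh, and their median over genes with at least 10 reads was 15411 bases. Lengths of this size are closer to whole genes with introns than to mRNAs, although the study's methods name the mRNA length. RPKM set side by side for different genes, such as ranks and the ratio of Gapdh to Actb, depend on these lengths, while the comparison of 1 gene between samples does not. The RPKM of Actb printed in the study's paper are several times the deposited ones, by a factor that differs between samples. The deposited values are therefore not those of the paper, and the reason was not tested.

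The level of Actb mRNA was higher in MA than in AO as deposited, and the gap narrowed with scaling. As deposited, AO1 had 238.3 RPKM of Actb, AO2 had 274.1, MA1 had 384.1 and MA2 had 637.3. Both MA samples lay above both AO samples, as was so for 58.2% of the 7203 genes tested, which reached an RPKM of 1 in 2 or more of the samples. After median-of-ratios scaling Actb was at 301.9, 305.7, 314.7 and 550.2 scaled RPKM in the same order. AO1, AO2 and MA1 were then close together, and MA2 stood apart at 1.75 times the level of MA1. The tissues still did not overlap, which held in this direction for 21.9% of the genes tested.

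The mean level of Actb was 303.8 ± 2.65 scaled RPKM (SD, n = 2) in AO and 432.5 ± 166.5 (SD, n = 2) in MA. On the log2(scaled RPKM + 0.5) scale the difference, MA minus AO, was 0.45 (standard error 0.34, 95% interval -0.45 to 1.36), a 1.37-fold higher level in MA. It did not pass the test in limma, with a Benjamini-Hochberg adjusted p of 0.491. The interval leaves room for a difference of more than 2-fold, so a level equal between the arteries was not shown. On the RPKM as deposited the difference was 0.95 (standard error 0.34), with an adjusted p of 0.114 in limma. The median over all tested genes was 0.37 as deposited and -0.05 after scaling, so part of the deposited difference in Actb was shared by most genes. The size rested on MA2. Without MA2 the log2 difference was 0.04, and without MA1 it was 0.85. When each sample was scaled to the same sum of RPKM in place of the median of ratios, Actb passed as enriched in MA with a log2 difference of 1.63 (adjusted p = 0.0118 from limma) and 44.9% of all tested genes passed in either direction.

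Gapdh mRNA, in contrast, was lower in MA. As deposited, AO1 had 39.3 RPKM of Gapdh and AO2 had 49.0, against 18.3 in MA1 and 32.9 in MA2. Both MA samples lay below both AO samples, the less common direction before scaling, with 15.4% of tested genes. After scaling Gapdh was at 49.7, 54.6, 15.0 and 28.4 scaled RPKM. Scaling thus widened the gap between the arteries for Gapdh and narrowed it for Actb. The scaled values of Gapdh also did not overlap, which held in this direction for 34.4% of tested genes.

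The mean level of Gapdh was 52.2 ± 3.42 scaled RPKM (SD, n = 2) in AO and 21.7 ± 9.48 (SD, n = 2) in MA. The log2 difference, MA minus AO, was -1.31 (standard error 0.35, 95% interval -2.26 to -0.37), a 2.49-fold higher level in AO. The unadjusted p was 0.0175 and the adjusted p 0.108 in limma, so Gapdh did not pass the test over all genes. In that test 488 of the 7203 genes, 6.77%, passed as enriched in AO, with an adjusted p of at most 0.05 and a difference of more than 2-fold. Another 67 genes, 0.93%, passed as enriched in MA. The difference in Gapdh was at the 7.09th percentile of the differences of all tested genes, and that in Actb at the 87.3rd. On the RPKM as deposited the difference in Gapdh was -0.82 (standard error 0.35, adjusted p = 0.148 from limma). Without MA1 the scaled difference was -0.87 and without MA2 it was -1.77. In whole arteries, fewer cells of a type that expresses Gapdh or Actb and less of the mRNA per cell cannot be told apart.

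**Figure D1:**
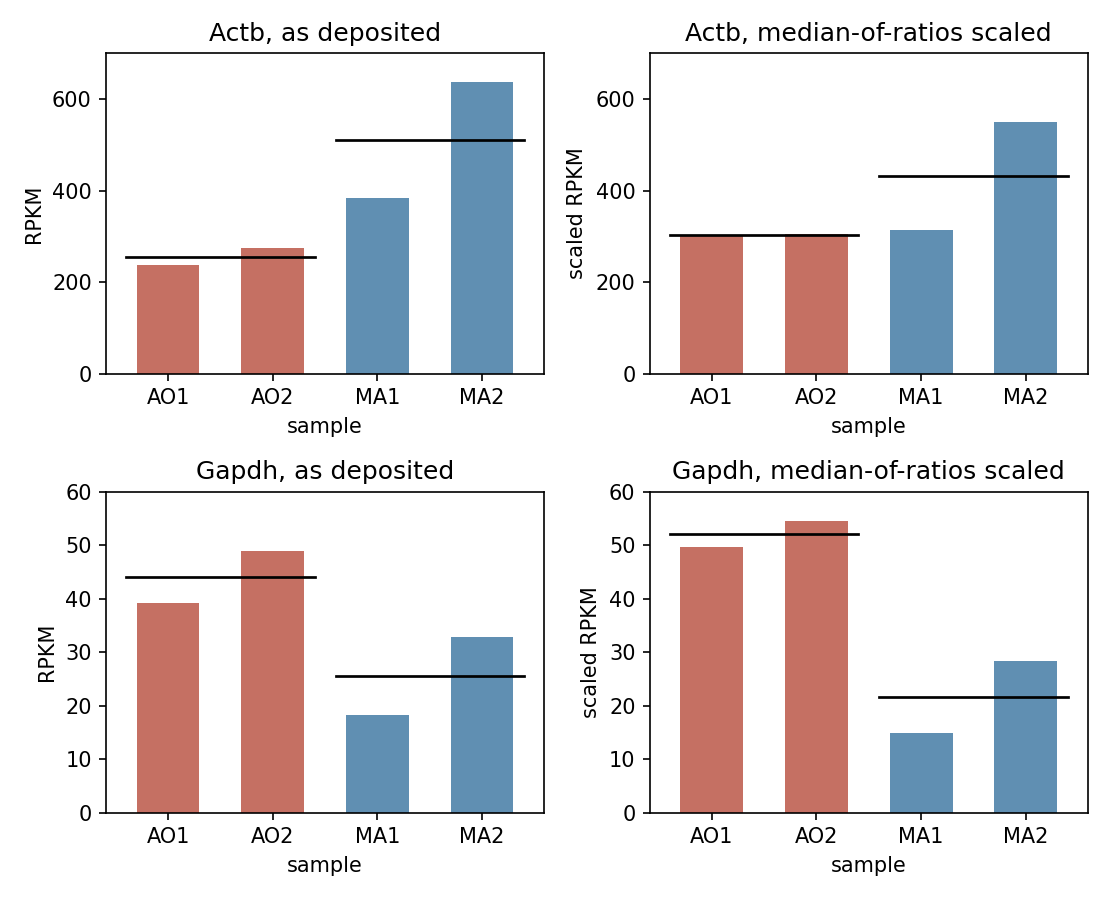
Level of Actb (top) and Gapdh (bottom) in each sample, in RPKM as deposited (left) and in RPKM divided by the median-of-ratios factors (right). Each bar is 1 sample, red for AO and blue for MA, and each black line is the mean of the 2 samples of a tissue. After scaling, Actb lies between 301.9 and 314.7 in 3 samples and at 550.2 in MA2, while Gapdh lies at 49.7 and 54.6 in AO and at 15.0 and 28.4 in MA.

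By RPKM both genes stood high among the 26313 listed, in an order that ranks genes with long introns low if the lengths hold introns. In that order Actb ranked 165th and 162nd in AO1 and AO2, and 134th and 74th in MA1 and MA2. Gapdh ranked 517th, 482nd, 1045th and 661st in the same order. Actb therefore stood higher in the list in MA, and Gapdh stood lower there. Gapdh was the scarcer of the pair in every sample, both in RPKM and in reads.

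The ratio of Gapdh to Actb within a sample does not depend on any scaling between samples, and its change between samples does not depend on the gene lengths. In RPKM over RPKM AO1 and AO2 had ratios of 0.165 and 0.179, while MA1 and MA2 had ratios of 0.0476 and 0.0516. Within a tissue the 2 samples differed 1.08-fold in AO and 1.08-fold in MA, although each gene alone differed 1.75-fold or more between the MA samples after scaling. The mean ratio was 0.172 ± 0.00977 (SD, n = 2) in AO and 0.0496 ± 0.00281 (SD, n = 2) in MA. On the log2 scale the ratio, MA minus AO, was -1.79, so Gapdh relative to Actb was 3.46-fold higher in AO. The lowest AO ratio was 3.19 times the highest MA ratio. AO1 and MA1, from the same rat, differed 3.46-fold, and AO2 and MA2, from different rats, also 3.46-fold.

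The gap between the tissues in this ratio was many times the spread between replicates, with an SD on the log2 scale of 0.08 in either tissue. The exact permutation test over samples gave a two-sided p of 0.333, the smallest that 2 samples against 2 can give. When all genes were divided by Actb and fitted in limma, Gapdh passed with a log2 difference of -1.76 (standard error 0.56, adjusted p = 0.0171). In that fit 12.9% of all tested genes passed in either direction, and 11.7% as enriched in AO. When all genes were divided by Gapdh, Actb passed with a log2 difference of 1.79 (standard error 0.65, adjusted p = 0.0409), among 17.1% of genes in either direction and 16% as enriched in MA. The standard errors are larger than the spread of the ratio itself, since limma pools the spread over all genes. The MA samples also lay further apart when divided by either gene. In both fits the pooling was complete, so the replicates of the gene itself had no weight in the spread behind p. Both passes are the single comparison of these genes with each other, seen from either side, and are read against these high shares.

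**Figure D2:**
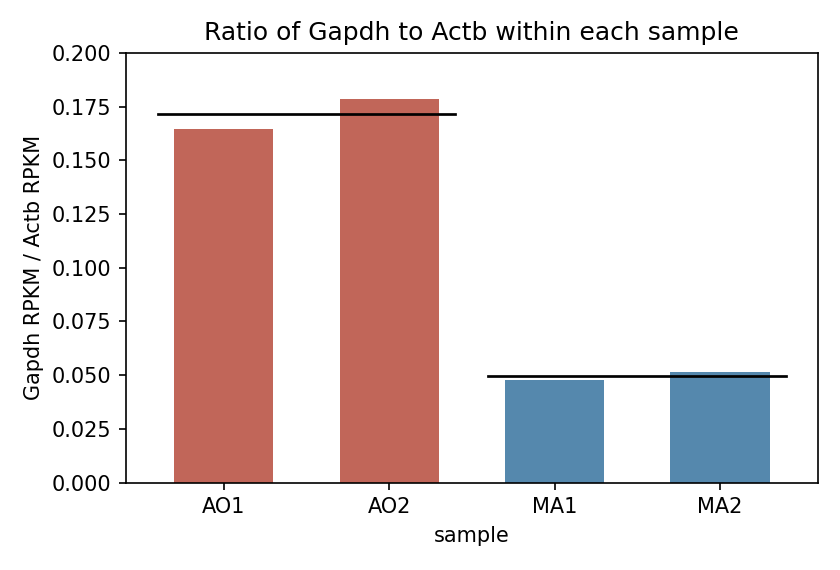
Ratio of Gapdh RPKM to Actb RPKM within each sample, where each bar is 1 sample, red for AO and blue for MA, and each black line is the mean of the 2 samples of a tissue. The AO samples sit at 0.165 and 0.179 and the MA samples at 0.0476 and 0.0516.

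Neither mRNA was among the most even over the 4 samples. The SD of log2(scaled RPKM + 0.5) over the samples was 0.42 for Actb and 0.84 for Gapdh, against a median of 0.27 over the genes tested. Of the tested genes, 68.0% had a smaller SD than Actb and 89.5% a smaller SD than Gapdh. Among the 276 genes within 4-fold of the level of Actb, 62.0% had a smaller SD. Among the 1414 genes within 4-fold of the level of Gapdh, 80.5% had a smaller SD. This measure includes the difference between the tissues and that between replicates. It depends on the scaling, since on the RPKM as deposited the order of the pair turned round, with an SD of 0.63 for Actb and 0.60 for Gapdh. By the deposited values 80.6% of tested genes had a smaller SD than Actb and 78.9% a smaller SD than Gapdh, with a median of 0.35.

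The spread of Actb came almost wholly from the MA side. AO1 and AO2 were only 0.02 apart on the log2 scale after scaling, and only 5% of the tested genes were closer in this pair. MA1 and MA2 were 0.80 apart, and 89.4% of tested genes were closer. Gapdh was 0.13 apart in AO and 0.90 in MA, where 91.8% of tested genes were closer. Both genes were higher in MA2 than in MA1, so this replicate difference was carried by the pair together and drops out of their ratio. The median gene was 0.20 apart between the AO samples and 0.24 between the MA samples.

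A second measure sets each gene against each other tested gene in turn and averages the SD of the log2 ratio over the 7202 partners, so that it hardly depends on the scaling. It was 0.61 for Actb and 0.88 for Gapdh, with a median of 0.49 over the tested genes. By this measure 70.8% of genes were more even than Actb and 88.2% more even than Gapdh. Actb was thus the more even of the pair by this measure and by the SD after scaling, but not by the SD of the RPKM as deposited, and it was less even than the median gene by all 3.

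Abundant genes with a smaller spread were common in these samples. Of the 312 genes with a mean of at least 100 scaled RPKM, 188 (60.3%) had a smaller SD than Actb and 228 (73.1%) a smaller SD than Gapdh. The smallest SD in this set was 0.03, for ENSRNOG00000005017, with 126.3 and 132.9 scaled RPKM in AO1 and AO2, and 130.3 and 129.0 in MA1 and MA2. ENSRNOG00000032595 followed, also at 0.03, with 324.1, 335.1, 317.5 and 322.6 scaled RPKM in the same order, a level near that of Actb. Both were picked for their small SD on these 4 samples, so the values describe them and do not test them.

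The abundant gene whose pattern lay nearest to that of Actb was ENSRNOG00000021403. It had 158.9 and 164.7 scaled RPKM in AO1 and AO2, and 177.4 and 260.1 in MA1 and MA2, at a Euclidean distance of 0.19 from Actb on the log2 scale over the 4 samples, each gene centred on its mean. MA2 stood apart for this gene too. The nearest to Gapdh was ENSRNOG00000009373, with 208.2, 220.7, 66.4 and 118.8 scaled RPKM in the same order and a distance of 0.08. It had the same order of samples as Gapdh, with AO2 highest and MA1 lowest. Its log2 difference, MA minus AO, was -1.27 (standard error 0.34, adjusted p = 0.108 from limma). With 4 samples many patterns lie close together, and nearness is a description only.

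**Figure D3:**
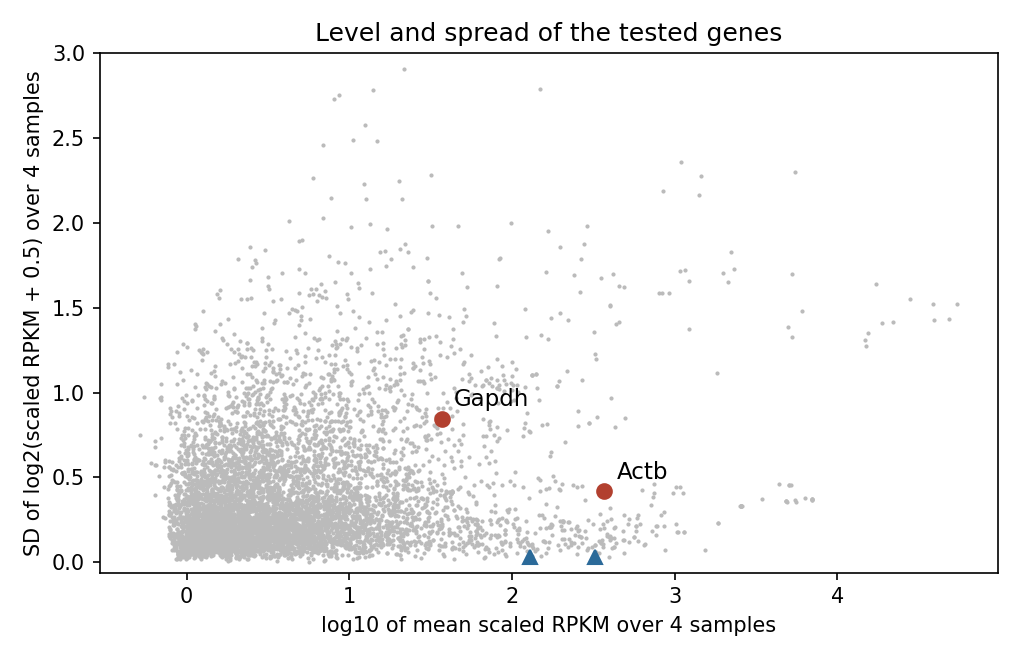
Mean level (x axis, log10 of mean scaled RPKM) and spread (y axis, SD of log2(scaled RPKM + 0.5) over the 4 samples) of the 7203 tested genes, each a grey point. Actb and Gapdh are the labelled red points at an SD of 0.42 and 0.84, the blue triangles are the 2 abundant genes with the smallest SD, both at 0.03, and 4 genes lie above the y axis.

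The choice of reference gene moved the whole comparison of MA with AO. With Actb as the divisor for all genes, the median log2 difference of the tested genes was -0.42, and only 15.8% were higher in MA. That median was -0.09 without MA2 and -0.76 without MA1. With Gapdh the median was 1.07, at 1.46 without MA2 and 0.64 without MA1, and 91.1% were higher in MA. With median-of-ratios scaling the median was -0.05, with 45.0% higher in MA. A gene at an equal scaled level in both arteries would be read as 1.37-fold higher in AO when divided by Actb, and as 2.53-fold higher in MA when divided by Gapdh. The 2 reference genes therefore pull all other genes in opposite directions. The geometric mean of Actb and Gapdh gave a median of 0.34, with 74.9% of genes higher in MA. This median rested on which MA sample was used, at -0.05 without MA1 and 0.69 without MA2.

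**Figure D4:**
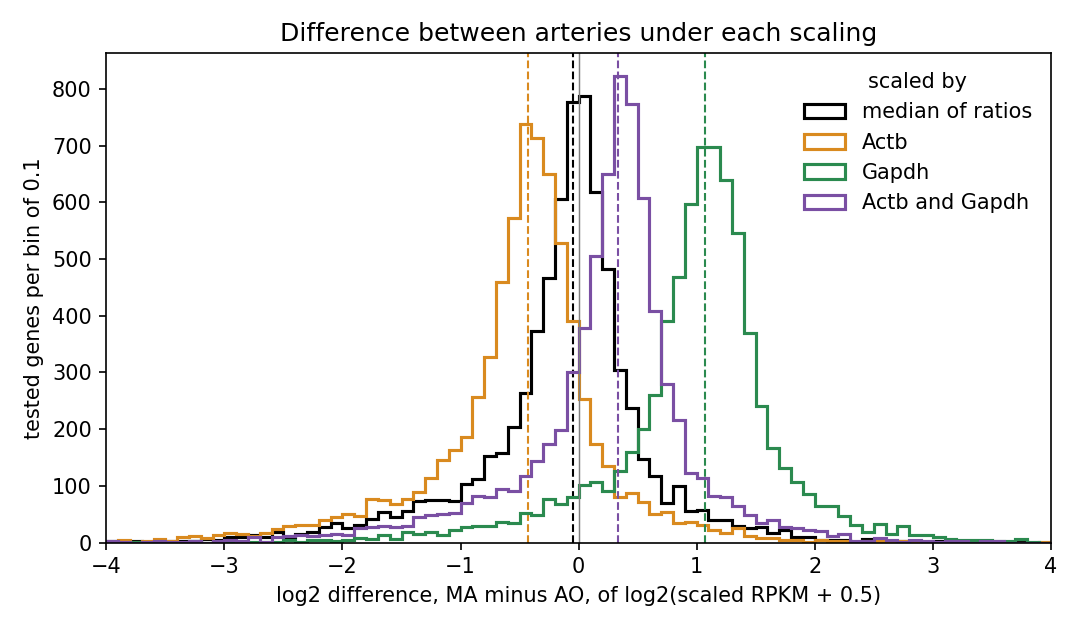
Number of tested genes (y axis, bins of 0.1) by their log2 difference, MA minus AO, of log2(scaled RPKM + 0.5) (x axis) when all genes are scaled by the median of ratios (black), Actb (orange), Gapdh (green) or the geometric mean of both (purple). Dashed lines mark the medians at -0.05, -0.42, 1.07 and 0.34, the grey line marks 0, and 25 genes fall outside the x axis under at least 1 scaling.

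The genes that passed the limits changed as well, and so did the test. Scaled to Actb, Gapdh or both, limma pooled the spread over all genes in full, so a gene's own replicates had no weight. The lowest adjusted p in limma was 0.00677 with median-of-ratios scaling and 8.89e-51 with Actb. The counts therefore do not reflect the shift of the medians alone. With median-of-ratios scaling 555 genes (7.71%) passed, most of them enriched in AO as given above. With Actb 930 genes passed, with 846 (11.7%) higher in AO and 84 (1.17%) higher in MA. With Gapdh 1233 passed, and the split turned to 1153 (16%) enriched in MA and 80 (1.11%) in AO. Both together gave 466 genes (6.47%), with 250 (3.47%) enriched in MA and 216 (3%) in AO. The RPKM as deposited gave 430 genes (5.97%), with 170 (2.36%) enriched in MA and 260 (3.61%) in AO.

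The calls were shared unequally. Of the 488 genes enriched in AO under median-of-ratios scaling, 487 also passed in that direction with Actb, 76 (15.6%) with Gapdh and 188 (38.5%) with both. Of the 67 genes enriched in MA, 36 (53.7%) passed with Actb, 67 with Gapdh and 61 (91.0%) with both. Division by Actb shifts all genes towards AO, and division by Gapdh or both shifts them towards MA. Keeping the calls on those sides was thus largely built in and does not test agreement. The 523 calls shared by Actb and median-of-ratios scaling made up 56.2% of the calls with Actb and 94.2% of those with median-of-ratios scaling. The 143 shared with Gapdh made up 11.6% and 25.8%. Among genes called under both scalings of each pair, 0 were called in opposite directions. This was fixed in advance by the 2-fold limit, since the scalings shift a gene by too little to pass it on both sides. The sign of the difference itself, whether or not it passed, was not the same as under median-of-ratios scaling in 29.2% of tested genes with Actb and in 46.1% with Gapdh.

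Either reference gene also set the MA replicates apart. The median log2 difference MA2 minus MA1 over the tested genes was 0.02 with median-of-ratios scaling, -0.62 with Actb and -0.78 with Gapdh. The median absolute difference in this pair was 0.24, 0.63 and 0.80. In AO it stayed at 0.20 with median-of-ratios scaling, 0.21 with Actb and 0.21 with Gapdh. With both genes together it was 0.72 in MA and 0.21 in AO. The geometric mean lies between Actb and Gapdh by construction, so this does not test whether combining them brings the MA replicates closer.

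Both genes have named copies in the genome, and reads that fit a copy as well can be lost or given to it. The RefSeq annotation of GRCr8 names 81 pseudogenes of Gapdh (Gapdh-ps and a number) on 17 chromosomes, 10 of Actb and 11 of Actg1, the gene of the closely related cytoplasmic gamma-actin. By the study's methods, reads that aligned to more than 2 places in the genome were discarded. How many reads of Gapdh and Actb were lost or given to a copy was not tested here.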

How the data were processed

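The authors aligned the paired-end reads with TopHat to the Ensembl rat genome (Rnor5.72), dropped reads that aligned to over 2 places, counted the rest by gene and deposited RPKM, which correct the count for gene length and library size, as 1 list per sample. Their DESeq test on counts was not repeated. Here, library sizes, gene lengths and whole reads were solved from the RPKM steps in Python 3.11.15 (numpy 2.4.6, numba 0.67.0). Each gene was given the shortest length that makes all its counts whole, so counts with a common divisor come out too low. This step was tested on simulated data. Scaled RPKM are the RPKM over median-of-ratios factors from the 17682 genes detected in every sample, which were 0.789 and 0.897 for AO1 and AO2, and 1.22 and 1.16 for MA1 and MA2. Log2(scaled RPKM + 0.5) of the 7203 genes that reached an RPKM of 1 in 2 or more samples was compared by limma 3.58.1 in R 4.3.3 (eBayes with a trend, no block), and p was adjusted by Benjamini-Hochberg over all of them. A gene was called where the adjusted p was 0.05 or less, the difference over 2-fold, and MA1 and MA2 lay in the same direction from the AO mean. The fit was tested on simulated data. As reference scalings, all genes were divided by Actb, Gapdh or their geometric mean, set to the same geometric mean as the factors above. Genes were named by a rule: the 2 members, the 2 genes of smallest SD among those with a mean of at least 100 scaled RPKM, and the nearest in pattern to each member. The 2 samples of a tissue came from separate rats, while AO1 and MA1, from the same rat, were treated as independent. In limma p rests on the spread between 2 animals per tissue, pooled in part with that of all tested genes. With Actb, Gapdh or both as the divisor it rests on the pooled spread alone. The members, lists and tests were chosen with earlier results of these data known. The mean SD of log2 ratios to all other genes was added after the values were seen.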

Additional observations from a re-analysis of the deposited data

How the results depend on the processing

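The sign of the difference in Actb (higher in MA) and in Gapdh (lower in MA) was kept under all alternatives run for them. Actb passed the limits with each sample scaled to the same sum of RPKM, at a log2 difference of 1.63, and scaled to Gapdh, at 1.79. With the same sum of RPKM the difference in Gapdh was -0.16, and scaled to Actb it passed at -1.76. Under the other alternatives (upper-quartile and quantile scaling, leaving out the 50 highest genes, pseudocounts of 0.1 and 1, other filters, no trend, limma-voom on the recovered reads) neither gene passed. For these shifts the cause was not tested. Leaving out each sample in turn gave 0.04 to 0.85 for Actb and -1.77 to -0.87 for Gapdh. In these fits the lone sample of a tissue is assumed to vary like the others. For the log2 ratio of Gapdh to Actb the range was -1.85 to -1.73. For the median of tested genes it was -0.76 to -0.09 scaled to Actb, 0.64 to 1.46 scaled to Gapdh, and -0.05 to 0.69 scaled to both. Leaving out MA1 turned the sign of this last median, scaled to Actb and Gapdh, to -0.054. The SD over the 4 samples was 0.63 for Actb and 0.60 for Gapdh on the RPKM as deposited, and 0.45 and 0.78 with upper-quartile scaling. With a filter of 0.1 RPKM the medians were -0.24, 0.77 and 0.25. Without a pseudocount, over the genes above 0 in all samples, they were -0.41, 1.38 and 0.48. For Gapdh these 2 alternatives thus moved the median in opposite directions.

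Replicate numbers are shared by the tissues, but only AO1 and MA1 come from the same rat, and over the tested genes the difference between AO replicates correlated with that between MA replicates at 0.018. With a replicate block the differences stay at 0.45 for Actb (adjusted p = 0.484 from limma) and -1.31 for Gapdh (adjusted p = 0.0793), the ratio stays at -1.79, and the calls scaled to Actb, Gapdh and both number 848, 1476 and 442. The block changed no call of either gene. Depth limits none of the values of Actb and Gapdh, whereas 2 samples per tissue limit all of them.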
